A study of Hordeum vulgare with 21 samples.

Results

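The genes described here were expressed in dry barley grain and fell when the grain was steeped. At the end of germination they were back within a set range of the dry-grain level, on the scale used to choose them. They were chosen by their transcript abundance in TPM, a length-corrected level that sums to the same total in every library. Members had a mean of at least 10 TPM in dry grain, a mean out of the steep of at most 25% of the dry mean, and a mean on the fifth day of germination of 50% to 200% of the dry mean. Of 35826 gene IDs in the tables, 185 met the rule, and all 185 passed the filter on low counts that left 20637 genes for testing. In all, 8847 IDs reached 10 TPM in dry grain and 437 of them had the same dip. The other genes with the dip ended outside the range of return, 193 of them below 50% of dry and 59 above 200%.

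All grain was of the cultivar Conrad, a spring malting barley, drawn from 1 pooled and mixed lot. The lot combined 5 grain samples from 4 regions and the crop years 2014 and 2015. Dry is unmalted mature seed, DoG0 is grain out of a 38 h steep that took moisture to 45%, and DoG1 to DoG5 are grain after 1 to 5 days of germination at 17 °C. Each of the 7 stages had 3 libraries, lettered A, B and C, made from seed RNA after poly-A selection, and the malted grain came from 3 malting runs. The gene IDs could not be paired with names, so no function is given for any member and the labelled tissue was not checked against marker genes.

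Mature cereal grain is dried with a store of messenger RNA made during grain filling and maturation. When grain takes up water in steeping, much of this store is degraded while the embryo and the aleurone, the living layer around the starchy endosperm, begin to transcribe again. Messages present both in the store and later in germination can therefore stand for old and new transcripts, which a level in grain RNA does not separate. In RNA from grain of mixed tissues, fewer cells of a type and less RNA per cell cannot be told apart.

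The dip and the final level were set by the rule, and the stages between them were not. The members together held 4.69%, 4.95% and 4.30% of all TPM in the 3 dry libraries and 0.345%, 0.415% and 0.382% in the 3 libraries out of the steep. At DoG1 the shares were 0.395%, 0.355% and 0.462%, and at DoG2 they were 2.68%, 2.94% and 2.58%. The libraries of DoG0 and DoG1 overlapped in this share, and every DoG2 library was above every DoG1 library. The mean share was 0.381% ± 0.0350 (SD, n = 3) at DoG0, 0.404% ± 0.0544 at DoG1 and 2.73% ± 0.188 at DoG2, a 6.76-fold difference between the first and the second day of germination. It was 3.11% ± 0.234 at DoG3, 3.5% ± 0.312 at DoG4 and 4.13% ± 0.293 at DoG5. A rise somewhere between DoG0 and DoG5 follows from the rule, but the step on which it falls does not.

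**Figure D1:**
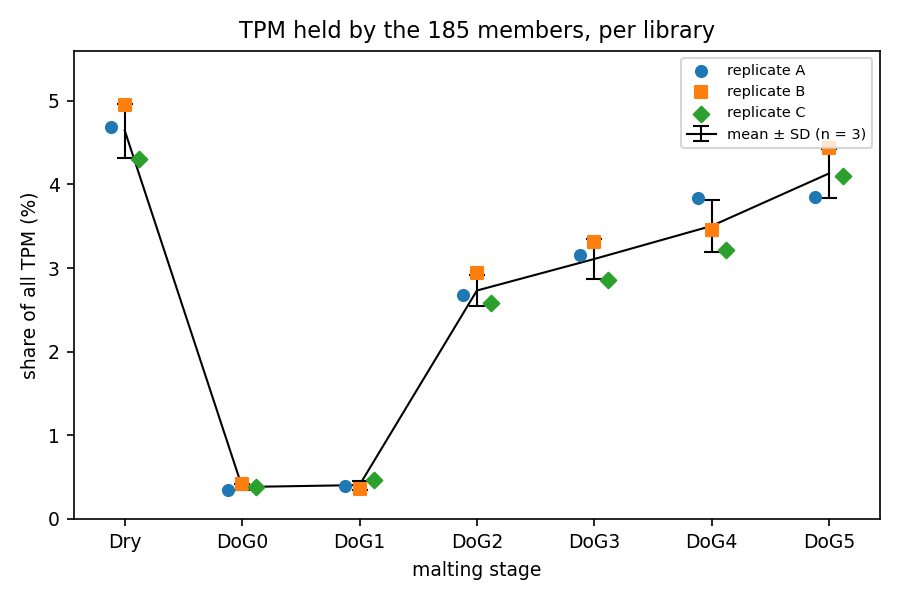
Share of all TPM held by the 185 members, in percent, by malting stage, with 1 point per library and a line through the stage means (bars, SD, n = 3). The share stands between 0.345% and 0.462% in the DoG0 and DoG1 libraries and at 2.58% or more in every DoG2 library.

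The course was also seen without the most abundant members. The 10 members most abundant in dry grain held 38.3% ± 0.337 (SD, n = 3) of the members' TPM there and 21.8% ± 2.01 at DoG1. Without them, the remaining 175 members held 2.87% of all TPM in dry grain, 0.263% at DoG0, 0.316% at DoG1, 1.78% at DoG2 and 2.73% at DoG5. In dry grain the members spanned 10.05 to 2997 TPM with a median of 87.6 TPM, and 25 of them reached 500 TPM.

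The members' levels relative to dry grain followed the same course. Each member's stage mean was expressed as a percent of its own dry mean. The median was 12.3% at DoG0 (quartiles 4.23% and 18.9%), 11.3% at DoG1 (3.52% and 22.1%) and 60.3% at DoG2 (39.6% and 84.6%). It was 76.0% at DoG3, 71.9% at DoG4 and 90.6% at DoG5. At DoG1, 146 members were still at or below 25% of dry and 16 were at 50% or more, while at DoG2 114 were at 50% or more. The lowest stage was DoG0 for 92 members, DoG1 for 90 and DoG2 for 3, so the low phase ran through the first day of germination for most of them.

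**Figure D2:**
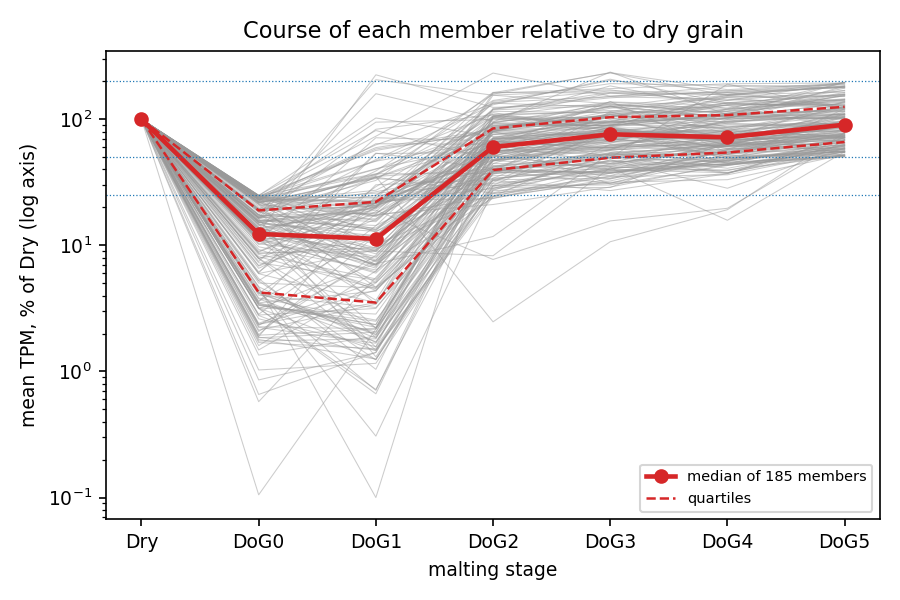
Level of each of the 185 members by stage, in percent of its own dry-grain mean on a log axis, with the median as a heavy line, the quartiles dashed and dotted lines at 25%, 50% and 200%. Values under 0.1% are drawn at 0.1%. The median is near 12% at DoG0 and 11% at DoG1, 60.3% at DoG2 and 90.6% at DoG5.

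The step from DoG1 to DoG2 involves no stage of the rule and was tested. The rule still sets DoG5 above DoG0, so it favours a rise on any step between them. All tested genes, given as the background, carry no such condition. With edgeR's quasi-likelihood test on the counts, adjusted over all 20637 genes by the Benjamini-Hochberg method, 157 of 185 members (84.9%) rose and 0 fell, where 19.7% of all tested genes rose and 17% fell. At an unadjusted p under 0.05, 160 members were higher and 1 was lower at DoG2, where 23.4% of tested genes were higher and 22.4% lower. DESeq2 called 158 members higher and 1 lower, against 20.5% and 19.4% of tested genes. The median log2 fold change was 2.75 (quartiles 1.46 and 4.10), against -0.01 over all tested genes and -0.01 over tested genes with at least 10 TPM in dry grain. Rises of at least 4-fold were called for 118 members (63.8%, against 4.45% of tested genes) and of at least 8-fold for 79 (42.7%, against 2.28%). In 154 members (83.2%) all 3 DoG2 libraries were above all 3 DoG1 libraries in TPM, against 19.1% of tested genes. All 3 were below in 4 members, against 35.7% of tested genes. The malted grain came from 3 malting runs of the same pooled grain, but the labels do not tie each library to a run. Each gene's spread was estimated over all 21 libraries, the 3 unmalted dry libraries among them. The p-values therefore measure the spread between libraries within stages and not between lots of grain.

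**Figure D3:**
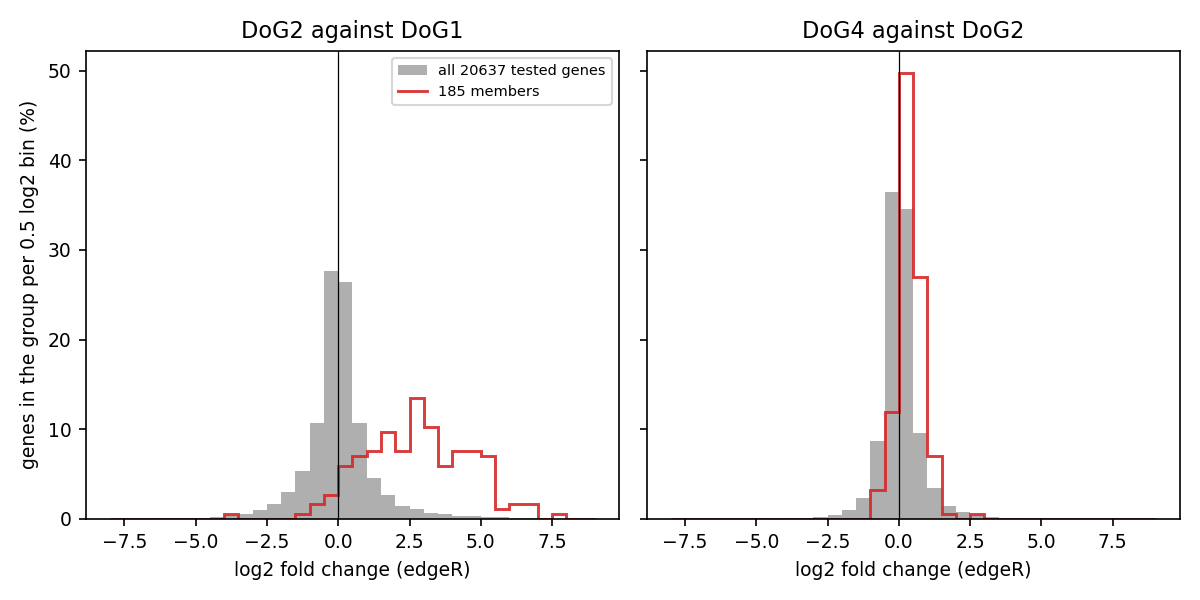
Distribution of the log2 fold change (edgeR) from DoG1 to DoG2 (left) and from DoG2 to DoG4 (right), as the percent of each group per bin of 0.5, for the 185 members (line) and all tested genes (grey). On the left the members' median is 2.75 and that of all tested genes is -0.01. On the right the medians are 0.33 and 0.01.

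The rise is also given by the depth of the dip and by the dry level, both of which are values the rule used. Since every member ends at 50% to 200% of dry, a deeper dip brings a larger total rise by construction. Among the 95 members whose dry mean was at least 8 times the DoG0 mean, 86 rose from DoG1 to DoG2 with a median log2 fold change of 3.80. Of the 90 members with a shallower dip, 71 rose with a median of 1.75. Among the 86 members with at least 100 TPM in dry grain, 80 rose with a median of 3.57, and among the 99 below it 77 rose with a median of 1.85. These subsets are described and were not tested against each other. The 2 splits overlap in their members.

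The same step was also described in genes with the same dip and another ending. Of the 189 tested genes that ended below 50% of dry, 93 (49.2%) rose and 20 fell from DoG1 to DoG2, with a median log2 fold change of 1.25. Of the 59 that ended above 200% of dry, 47 (79.7%) rose and 1 fell, with a median of 2.57. The difference between the 3 endings was not tested.

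After the second day the members' levels differed less from stage to stage. From DoG2 to DoG4, 12 members (6.49%) rose in the edgeR test and 0 fell, against 4.49% and 4.82% of tested genes, so in this fit the share of members that rose was near the background. At an unadjusted p under 0.05, 41 members (22.2%) were higher and 0 lower, where 12.76% of tested genes were higher and 12.54% lower. DESeq2 called 22 members (11.9%) higher and 0 lower, against 7.47% and 6.48% of tested genes. The median log2 fold change was 0.33, against 0.01 over all tested genes, and 157 of the 185 fits were positive. In 101 members (54.6%) all 3 DoG4 libraries were above all 3 DoG2 libraries, against 25.7% of tested genes, and in 4 they were all below, against 22.5%. The count and its distance from the background depended on the fit. With only the 6 libraries of the 2 stages, 77 members (41.6%) rose and 4 (2.16%) fell, against 16.7% and 17.2% of tested genes. With the replicate letter as a block among these 6, an alternative added after seeing the data, 89 members (48.1%) rose and 8 (4.32%) fell, against 17.1% and 16.6%. With the letter as a block among all 21 libraries, 8 members (4.32%) rose and 0 fell, against 3.75% and 4.11%. Leaving out 1 library at a time gave 4 to 9 risen members (2.16% to 4.86%), against 1.69% to 2.45% of tested genes. The count was 4 without any 1 of the DoG2 libraries or without DoG4 B, 5 without DoG4 A and 9 without DoG4 C.

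Single late steps called few members. From DoG2 to DoG3, 8 members rose and 0 fell in edgeR's test, against 1.14% and 0.838% of tested genes, with a median log2 fold change of 0.31. At an unadjusted p under 0.05, 48 members (25.9%) were higher and 0 lower, where 8.87% of tested genes were higher and 7.18% lower. From DoG3 to DoG4, 0 members rose and 0 fell, against 0.0145% and 0.136% of tested genes. At an unadjusted p under 0.05, 8 members (4.32%) were higher and 19 (10.3%) lower on that day, where 4.40% of tested genes were higher and 5.81% lower. Among tested genes with at least 10 TPM in dry grain, 2.25% were higher and 10.8% lower, so the members' share of lower genes was near that of this group. Of the 185 members, 24 had no rise called from DoG1 to DoG2, from DoG2 to DoG3 or from DoG2 to DoG4.

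Members were grouped by the first germination stage at which the mean level was at least 50% of dry. The stage was DoG1 for 16 members, DoG2 for 100, DoG3 for 28, DoG4 for 13 and DoG5 for 28. The median dry level was 44.7 TPM in the DoG1 class, 116 TPM in the DoG2 class, 67.1 TPM in the DoG3 class, 41.4 TPM in the DoG4 class and 157 TPM in the DoG5 class. A rise from DoG1 to DoG2 was called in 4 of the 16 earliest members and in 98 of the 100 that reached the mark at DoG2. Both shares are bound to the definition of the classes, since the DoG1 class was already high at DoG1 and the DoG2 class crossed the mark on this step. The rise was also called in 24 of the 28 DoG3, 9 of the 13 DoG4 and 22 of the 28 DoG5 members, so most members that were late to reach 50% of dry had risen by the second day. The DoG5 class stood at a median of 7.23% of dry at DoG1, 31.3% at DoG2, 38.0% at DoG3, 43.7% at DoG4 and 57.0% at DoG5. Once there, 100 members lay within 50% to 200% of dry at DoG2, DoG3, DoG4 and DoG5 alike, and 8 exceeded 200% at any of DoG1 to DoG4. The highest of all stage means was Dry in 99 members and DoG5 in 52.

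**Figure D4:**
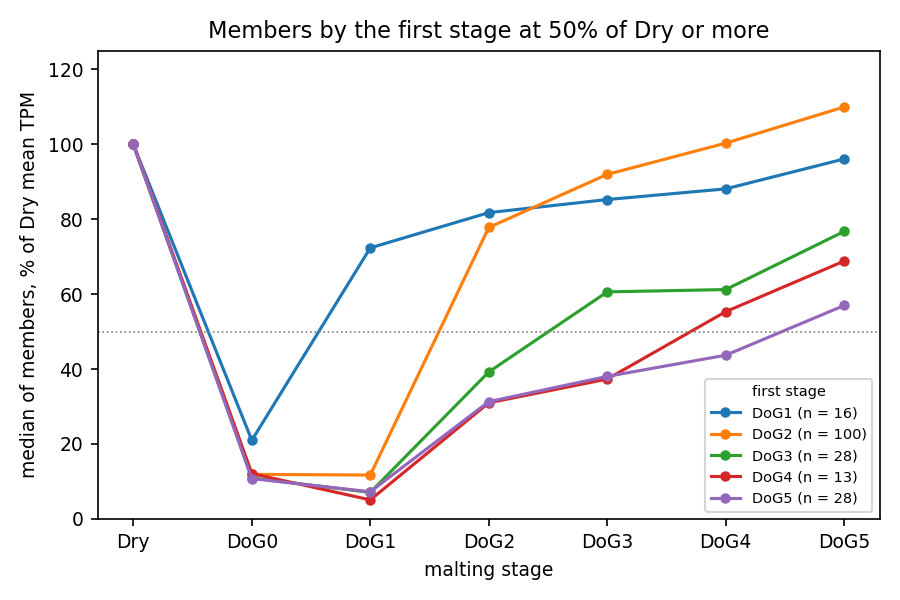
Median level by stage, in percent of the dry mean TPM, for members grouped by the first germination stage at 50% of dry or more (dotted line). The DoG1 class has a median of 72.4% at DoG1, and the other classes have medians from 5.06% to 11.7% there and from 31.0% to 77.8% at DoG2.

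The rank order of the members was nearer to that of dry grain at DoG2 than at DoG1. Over the 185 members, Spearman's rho with the dry level was 0.798 at DoG0, 0.606 at DoG1, 0.928 at DoG2 and 0.962 at DoG5. These values are across genes, which are not independent replicates, and share the dry libraries and the rule.

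The 25 members with at least 500 TPM in dry grain stood low at both DoG0 and DoG1. Their median level was 4.17% of dry at DoG0 (range 1.35% to 24.7%), 2.50% at DoG1 (0.665% to 22.8%), 47.3% at DoG2 (23.5% to 105%) and 75.9% at DoG5 (51.1% to 135%). The cut and the percents both use the dry level, so a high dry mean lowers these percents by construction. From DoG1 to DoG2, 24 of the 25 rose in edgeR's test, against 157 of all 185 members and 19.7% of tested genes. The member that did not, HORVU.MOREX.r3.1HG0046400, had an edgeR log2 fold change of 0.21 ± 0.28 (SE, adjusted p = 0.592).

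The 3 members most abundant in dry grain are given here library by library. HORVU.MOREX.r3.1HG0080020, on chromosome 1H by the code in its ID, was at 3558, 3018 and 2416 TPM in dry grain, 213, 205 and 237 TPM at DoG0, and 160, 112 and 205 TPM at DoG1. It then stood at 1317, 1524 and 1388 TPM at DoG2 and 1683, 1613 and 1952 TPM at DoG5. The DoG2 libraries were all above those of DoG1, and the edgeR log2 fold change between these days was 3.33 ± 0.24 (SE, adjusted p = 2.06e-08).

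HORVU.MOREX.r3.5HG0516830, on chromosome 5H, was at 1789, 2717 and 2770.2 TPM in dry grain, 36.8, 71.1 and 33.2 TPM at DoG0 and 70.7, 31.7 and 55.6 TPM at DoG1. At DoG2 its libraries read 1919, 2117 and 1867 TPM, and at DoG5 2221, 2671 and 1931 TPM. Its DoG2 and DoG5 libraries lay within the spread of dry grain, and the edgeR log2 fold change from DoG1 to DoG2 was 5.42 ± 0.34 (SE, adjusted p = 3.96e-09).

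HORVU.MOREX.r3.6HG0622770, on chromosome 6H, was at 1547, 3117 and 2046 TPM in dry grain, 39.9, 148 and 25.7 TPM at DoG0 and 18.99, 8.41 and 17.3 TPM at DoG1. It stood at 1213, 1387 and 1206 TPM at DoG2, at 2539, 2055 and 2057 TPM at DoG4 and at 2733, 2656 and 2382 TPM at DoG5. Its DoG1 libraries were all below its DoG0 libraries, and its DoG2 libraries all above both. From DoG1 to DoG2 the edgeR log2 fold change was 6.61 ± 0.58 (SE, adjusted p = 2.16e-07). From DoG2 to DoG4 all libraries were higher, but the edgeR log2 fold change of 0.78 ± 0.45 (SE) did not pass the threshold (adjusted p = 0.289).

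The 2 members with the largest rises from DoG1 to DoG2 had very different levels. HORVU.MOREX.r3.4HG0338360, on chromosome 4H, was at 808, 1350.1 and 767 TPM in dry grain, 46.2, 39.7 and 37.9 TPM at DoG0 and 9.96, 3.86 and 6.89 TPM at DoG1. At DoG2 it was at 581, 627 and 555 TPM and at DoG5 at 681, 981 and 695 TPM. The DoG1 libraries were all below those of DoG0 and of DoG2, and the edgeR log2 fold change to DoG2 was 6.62 ± 0.31 (SE, adjusted p = 2.14e-10).

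HORVU.MOREX.r3.1HG0048520, on chromosome 1H, is a weakly expressed member, with a length inferred from counts and TPM of 0.101 relative to the median gene. Its levels were 2.68, 7.06 and 25.03 TPM in dry grain, 0.83, 0.80 and 0 TPM at DoG0 and 0 TPM in all 3 DoG1 libraries, and 16.5, 11.7 and 4.84 TPM at DoG2. It had no count at DoG1 and 95 counts over the DoG2 libraries, so against a floor of 3 counts per library it was at least 10.4-fold higher at DoG2 (edgeR adjusted p = 0.000156). Its DoG5 mean was 197% of dry, the highest in the set, over dry libraries that differed by more than 3 times.

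The late rises from DoG2 to DoG4 were smaller. HORVU.MOREX.r3.3HG0222560, on chromosome 3H, was at 39.9, 56.0 and 60.5 TPM in dry grain, 0.95, 1.27 and 1.28 TPM at DoG0 and 0.64, 0.68 and 1.30 TPM at DoG1. At DoG2 it was at 27.7, 30.9 and 14.8 TPM and at DoG4 at 58.5, 62.2 and 54.0 TPM. It rose on both steps, by a log2 fold change of 4.95 ± 0.31 (SE, edgeR adjusted p = 4.78e-09) from DoG1 to DoG2 and 1.22 ± 0.25 (SE, edgeR adjusted p = 0.00647) from DoG2 to DoG4.

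HORVU.MOREX.r3.4HG0392110, on chromosome 4H, stayed low on the second day. It was at 149.99, 54.3 and 59.5 TPM in dry grain, 4.54, 2.67 and 1.11 TPM at DoG0, 3.83, 4.09 and 10.9 TPM at DoG1 and 12.3, 9.91 and 8.83 TPM at DoG2. It stood at 58.9, 32.4 and 29.5 TPM at DoG4 and 137, 115 and 67.6 TPM at DoG5. Its DoG1 and DoG2 libraries overlapped, and its DoG4 libraries were all above those of DoG2. The edgeR log2 fold change was 0.87 ± 0.54 (SE, adjusted p = 0.223) from DoG1 to DoG2 and 1.94 ± 0.52 (SE, adjusted p = 0.0275) from DoG2 to DoG4. The later call was lost without DoG2 A, B or C or DoG4 A or B, with adjusted p from 0.0517 to 0.119.

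A group of members on chromosome 2H, singled out after its values were seen, stood high earlier. Of 22 IDs between HORVU.MOREX.r3.2HG0122190 and HORVU.MOREX.r3.2HG0122620, 11 reached 10 TPM in dry grain and 4 were members, all of them among the 16 that stood at 50% or more of dry by DoG1. HORVU.MOREX.r3.2HG0122600 was at 76.9, 105 and 882 TPM in dry grain, 24.8, 22.9 and 16.6 TPM at DoG0, 199, 192 and 178 TPM at DoG1 and 197, 199.9 and 183 TPM at DoG2. Its DoG1 and DoG2 libraries overlapped, with an edgeR log2 fold change of 0.21 ± 0.52 (SE, adjusted p = 0.783). HORVU.MOREX.r3.2HG0122530 was at 3.61, 18.8 and 166 TPM in dry grain and 156, 140.3 and 129 TPM at DoG1. Library C was far above the other dry libraries in both, and without it 3 of the 4 left the set. None of the 4 met the rule under every omission of 1 library, and 3 of them had shared reads.

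**Figure D5:**
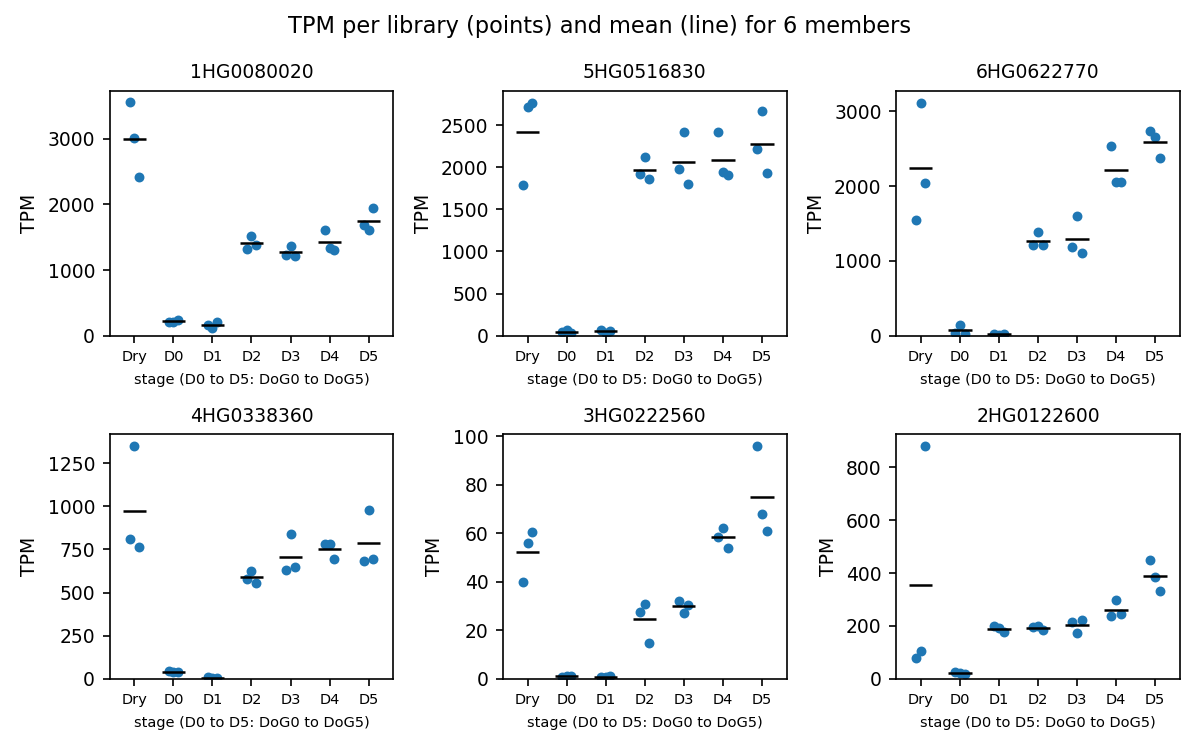
TPM of 6 members by stage, on a linear axis, with 1 point per library and a line at the mean of 3. All panels but 2HG0122600 are low at DoG0 and DoG1 and higher at DoG2 in every library, and 2HG0122600 is already at 178 to 199 TPM at DoG1 and has 1 dry library at 882 TPM.

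Some members had ID numbers close to those of another member on the same chromosome. There were 10 pairs with ID numbers at most 30 apart, involving 19 members. HORVU.MOREX.r3.1HG0079980, 1HG0080000 and 1HG0080020 formed a run of 3, with mean levels of 88.2, 517 and 2997 TPM in dry grain and 1.02, 22.8 and 159 TPM at DoG1. HORVU.MOREX.r3.6HG0622790, beside the abundant 6HG0622770, was at 461, 1039.7 and 852 TPM in dry grain, 18.0, 8.98 and 15.7 TPM at DoG1 and 804, 937 and 740 TPM at DoG2. Its edgeR log2 fold change to DoG2 was 6.05 ± 0.56 (SE, adjusted p = 3.94e-07). The members were spread over all 7 chromosomes, with 19 on 6H to 33 on 5H, and no count of neighbouring pairs among other genes was made.

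Reads shared between similar genes limit some of these values. Of the 185 members, 63 (34.1%) had a fractional expected count in at least 1 library, against 18.5% of tested genes and 19.4% of tested genes with at least 10 TPM in dry grain, and the 7 members named by the rule were all among them. From DoG1 to DoG2, 105 of the 122 members with whole counts (86.1%) rose and 52 of the 63 with shared reads (82.5%). The 2 most abundant members with whole counts in all libraries, picked after values were seen, ran the same way. HORVU.MOREX.r3.7HG0637810 was at 1829.9, 2141 and 1609 TPM in dry grain, 25.6, 29.2 and 20.5 TPM at DoG0, 39.7, 23.5 and 43.6 TPM at DoG1 and 1145, 1230.4 and 1027 TPM at DoG2. HORVU.MOREX.r3.5HG0428820 was at 1483, 1307 and 823 TPM in dry grain, 54.6, 74.4 and 68.1 TPM at DoG0, 15.4, 13.2 and 8.93 TPM at DoG1 and 826, 883 and 853 TPM at DoG2. In both, all DoG2 libraries were above all DoG1 libraries, with edgeR log2 fold changes of 5.18 ± 0.24 (SE, adjusted p = 2.08e-10) and 6.28 ± 0.33 (SE, adjusted p = 6.24e-10).

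The members' median length, inferred from counts per TPM and relative to the median gene, was 0.623 (quartiles 0.452 and 0.897), against 1.02 over all tested genes. This is the length that the TPM corrects for, and it was not checked against the full transcript length. The genes that dipped and ended below 50% of dry had a median of 0.464 and those that ended above 200% had 0.647. The part of length in the dip was not tested.

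The median spread between libraries was wider for members than for the tested genes set beside them at every stage. Those genes had passed a minimum mean CPM at the stage. That filter was not applied to the members, so the medians are not on like terms. The median SD of log2 CPM over 3 libraries was 0.52 for members and 0.30 for those genes in dry grain. It was 0.34 and 0.19 at DoG0 and 0.44 and 0.21 at DoG1. It was 0.18 and 0.11 at DoG2, 0.19 and 0.13 at DoG3, 0.19 and 0.11 at DoG4 and 0.33 and 0.21 at DoG5. In 30 members the highest dry library was more than 3 times the lowest. A single dry library decided membership for 73 of the 185 members, 43 of which left the set without library C. In all, 102 members met the rule whichever library of Dry, DoG0 or DoG5 was left out. Of these 102, 96 rose from DoG1 to DoG2 (94.1%), and of the other 83, 61 did (73.5%). This split uses the values of the rule, and the 102 had a deeper dip. Their median at DoG0 was 8.38% of dry, against 12.3% over all members. The 2 shares were not tested against each other, and nothing is read from their difference. The median level of the 102 was 6.87% of dry at DoG1 and 60.7% at DoG2.

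The return to the dry level depended on the scale, and so did the depth of the dip. CPM with TMM scaling sets the bulk of genes level between libraries. By it all 185 members still lay at or below 25% of dry at DoG0, but 111 of 185 lay within 50% to 200% of dry at DoG5. The median log2 difference from Dry to DoG0 was -2.79 over the members in TPM and -3.25 in scaled CPM. Over all tested genes it was 0.35 and -0.01. This scaling deepens the dip, so members were nearly bound to keep it. The median log2 difference from Dry to DoG5 was 0.44 over all tested genes and -0.14 over the members in TPM, and 0.05 and -0.74 in scaled CPM. In the edgeR fit 100 members (54.1%) were lower and 1 was higher at DoG5 than in dry grain, where 32.5% of tested genes were lower and 36.8% higher. Among tested genes with at least 10 TPM in dry grain, 55.2% were lower and 19.4% higher. The rule used both stages, so nothing is read from those counts. For DoG1 to DoG2 the median over the members was 2.33 in TPM and 2.22 in scaled CPM, against -0.15 and -0.01 over all tested genes.

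The remaining comparisons with the stages of the rule are descriptions. From Dry to DoG0, 185 members were lower (32% of tested genes), with a median log2 difference of -3.69 and DoG0 libraries all below the dry libraries in 181 (14.8% of tested genes). From DoG0 to DoG1, 50 members were higher and 48 lower in edgeR's test, where 28.4% and 23.8% of tested genes were, with a median log2 fold change of -0.10. That median was 0.04 in TPM and -0.07 in scaled CPM, so its sign turned with the scale. From DoG4 to DoG5, 1 was higher and 0 were lower, where 0.107% of tested genes were higher and 0.0194% lower. At an unadjusted p under 0.05, 21 members were higher and 0 lower between them, where 4.18% of tested genes were higher and 3.01% lower.

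Just inside and just outside the limits of the rule, values lay close together. The lowest dry mean was 10.05 TPM in HORVU.MOREX.r3.3HG0289050, and HORVU.MOREX.r3.1HG0084700 at 9.93 TPM was left out. The shallowest dip was 24.9% of dry, in HORVU.MOREX.r3.6HG0609610, and HORVU.MOREX.r3.5HG0536900 at 25.1% was left out. The lowest return was 50.3% in HORVU.MOREX.r3.7HG0659410, with HORVU.MOREX.r3.5HG0489830 at 49.7% outside, and the highest was 197% in HORVU.MOREX.r3.1HG0048520, with HORVU.MOREX.r3.3HG0283640 at 200% of dry outside.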

How the data were processed

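RNA-seq libraries of 7 stages with 3 replicates each were analysed from the tables the authors deposited, expected counts and TPM per gene. Per the submitters' processing notes, the tools were STAR and RSEM, with no version. Which build, annotation and strand setting were used is not stated in the labels or headers. Total expected counts per library ran from 18145400 to 31582116, and expected counts were rounded to whole numbers. None of the 35826 IDs matched the 58438 genes of the reference table (MorexV3_pseudomolecules_assembly).

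Counts were fitted with edgeR 4.0.16 (R 4.3.3) over all 21 libraries, with TMM scaling, filterByExpr (minimum count 10) and Benjamini-Hochberg adjustment over 20637 genes at 0.05. DESeq2 1.42.0 and limma 3.58.1 served as alternatives, limma on log2(TPM + 1) and log2(TPM + 0.1). Standard errors were computed from the fold change and the test's F. Relative length was inferred from counts per TPM and set against the typical gene. Members, lists and comparisons were chosen with earlier results of these data known. IDs named in full were the 2 with the largest rise on each tested step with non-overlapping libraries and at least 10 TPM, the 3 with the highest dry mean and those at the limits of the rule. Neighbouring IDs, the 2H group, the whole-count pair and those in the closing observations were chosen after their values were seen.

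Same-letter libraries of DoG2 and DoG4 deviated together from their stage means, with low correlations of 0.135, 0.124 and 0.184. The main fit did not pair libraries by letter, and the letters entered only as a block in alternative fits. The labels do not say whether a letter stands for 1 malting run, and Dry was not malted. Same-letter libraries did not deviate together for DoG1 and DoG2 (0.0549, -0.165 and -0.241), DoG2 and DoG3 (-0.00875, -0.127 and -0.0589) or DoG3 and DoG4 (0.0215, -0.217 and 0.0791). Counts of replicate pairs differed by more than sampling noise, with chi-square per degree of freedom from 8.49 to 126.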

Additional observations from a re-analysis of the deposited data

How the results depend on the processing

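The number of members was 95 when dry had to be at least 8 times DoG0 and 109 with a narrower window of return at DoG5. It ran from 168 to 204 without 1 library at a time. In TMM-scaled CPM the rule found 267 genes, 102 of them members (55.1% of the members and 38.2% of that set). Risen members from DoG1 to DoG2 numbered 151 to 159 without 1 library at a time and 153 to 158 under the other alternatives, with 157 under the replicate block. Fallen members there were 1 by library size alone, 1 with only 6 libraries, 1 with the replicate block, 1 by DESeq2, and 0 to 1 without 1 library at a time. Over all these fits, 13.9% to 20.5% of tested genes rose on that step and 11.5% to 24.9% fell. From DoG2 to DoG4, 19 rose by library size alone (10.3%, against 5.51% of tested genes) and 22 by limma on log2(TPM + 1) (11.9%, against 5.54%). By DESeq2 22 rose (11.9%, against 7.47%). With only 6 libraries 77 rose (41.6%, against 16.7%), and 89 with the block among 6 libraries (48.1%, against 17.1%). With the replicate block among all 21 libraries 8 rose (4.32%, against 3.75%). Without 1 library at a time 4 to 9 rose (2.16% to 4.86%, against 1.69% to 2.45%). Fallen members on that step were 4 with only 6 libraries, 8 with the block among them, and 0 without any 1 library. The cause of these differences was not tested. The fold changes of the 4 members named for their rises had the same sign under every alternative run for them. Members with few counts at DoG0 or DoG1 (6 and 3 with under 9 counts over the stage) have uncertain folds.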

Other observations

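Of the 28 members not called risen from DoG1 to DoG2, 18 had positive and 10 negative fits. HORVU.MOREX.r3.1HG0046400, given here with 1 other after values were seen, was at 2234, 1252 and 2239 TPM in dry grain, 289, 474 and 543 TPM at DoG1 and 413, 415 and 518 TPM at DoG2. Its DoG1 and DoG2 libraries overlapped, and it stood at 1069, 826 and 1088 TPM at DoG5. HORVU.MOREX.r3.2HG0200030 was lowest at DoG2, at 1.18, 0.30 and 0.32 TPM after 0.45, 3.26 and 21.9 TPM at DoG1, and its fit of -3.63 ± 1.43 (SE, edgeR adjusted p = 0.0554) did not pass the threshold. At DoG5 its libraries read 49.8, 4.14 and 2.94 TPM, so its return rests on library A.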
